A study of Mus musculus with 12 samples.

Results

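The scavenger receptors for modified lipoproteins described here are 10 genes, Cd36, Msr1, Olr1, Marco, Cd163, Stab1, Scarb2, Scara5, Lrp1 and Cd5l, taken by symbol from a table of 25284 genes. All 10 had a row in the table, and 9 of them passed the filter on low counts that left 15857 genes for testing. Marco did not pass. RNA was sequenced from the thoracic aorta of 12 male ApoE-/- mice on a C57BL/6 background. ApoE-/- mice lack apolipoprotein E, which helps to clear lipoproteins from blood, and develop atherosclerosis. In 6 mice an osmotic minipump under the skin delivered AZ6983, an agonist of the alpha 7 nicotinic acetylcholine receptor (α7nAChR), over 8 weeks at a daily dose of 50 µmol per kg, and 6 control mice received the cyclodextrin vehicle in the same way. All 12 mice ate a high fat diet with added cholesterol during treatment and were 18 weeks old at the end. The control mice are called C1 to C6 and the AZ6983 mice A1 to A6, each being 1 animal and 1 library.

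Scavenger receptors bind chemically altered lipoproteins, such as oxidized low density lipoprotein (LDL), together with other polyanionic ligands and dying cells. Unlike the LDL receptor, those of macrophages are not shut down when the cell fills with cholesterol, and uptake through CD36 and the class A receptor MSR1 is a known route to the lipid-laden foam cell of the plaque. The receptors differ widely in structure and are grouped by the ligands they share, and several members are better known for other cargo. CD163 takes up haemoglobin bound to haptoglobin, SCARA5 binds ferritin, and SCARB2 is a lysosomal membrane protein that carries glucocerebrosidase. LRP1 is a large endocytic receptor of the LDL receptor family, and CD5L is not a receptor but a protein secreted by macrophages.

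Libraries held 23810036 to 35864666 counts on genes. Smooth muscle genes were high in every mouse, Acta2 at 3610 to 7100 CPM, counts scaled to a common library size and Myh11 at 4550 to 7010 CPM, as the tissue label implies. Apoe was at 4.63 to 11.4 CPM in all 12 mice. The no-gene share, the percent of the table's reads that could be placed on no gene, was 10.1% ± 1.55 (SD, n = 6) in control while AZ6983 mice had 12.8% ± 1.34 (SD, n = 6, two-sided exact permutation p = 0.0108), and it is given again beside the members it moved with. Of 12 lists of cell type markers scored as their mean log2 CPM, the neutrophil score, led by S100a9 and S100a8, was higher in AZ6983 mice by 1.61 (exact permutation p = 0.00649, adjusted over the lists 0.0779). The foamy macrophage score, led by Ctsd and Cd9, was lower by 0.70, with control mice at 5.90 to 6.86 and AZ6983 mice at 5.11 to 6.84 (exact permutation p = 0.0455, adjusted over the lists 0.273). The general macrophage score was 5.14 to 5.85 in control and 4.82 to 5.91 in AZ6983 mice (exact permutation p = 0.548). In whole aorta, fewer cells of a type and less RNA per cell cannot be told apart.

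The members covered a wide range of levels. On a scale per length, CPM divided by the kilobases of exon in each gene (FPKM), Cd36 was the highest in control mice at 378 ± 62.8 (SD, n = 6). Scarb2 followed at 73.2 ± 9.88 and Lrp1 at 59.5 ± 12.7, both spread widely enough that their mice overlapped. Scara5 at 30.8 ± 2.56, Cd5l at 27.9 ± 17.7, Stab1 at 16.1 ± 1.36 and Cd163 at 15.4 ± 2.53 formed a middle range in which each neighbour overlapped the next. Msr1 was lower at 2.54 ± 0.585 with no overlap with Cd163, Olr1 lower again at 0.278 ± 0.0882, and Marco, at 0.0826 ± 0.056, overlapped Olr1. Of the pair of receptors best known in foam cells, Cd36 was thus the most abundant member by RNA in this tissue and Msr1 among the least. In AZ6983 mice the mean of Lrp1, 69.9 ± 17.9, lay above that of Scarb2, 62.5 ± 7.98, again with overlap, and the other members kept their order, from 351 ± 105 for Cd36 to 0.213 ± 0.407 for Marco (SD, n = 6).

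No member passed the 10% false discovery rate (FDR) in the comparison of AZ6983 with control mice (edgeR quasi-likelihood test, Benjamini-Hochberg adjusted p of 0.488 to 0.9 over the 9 members tested). Across the table edgeR called 0 of 15857 genes, which is 0%, and 1616 genes had an unadjusted p under 0.05. DESeq2 on every gene called 92 genes, 0 of them members, which is 0.523% of the 17592 genes to which it gave an adjusted p. At an unadjusted p under 0.05, 1 member was lower, Scarb2, against 2.81% of all genes, and 0 members were higher, against 7.38%. In no member did the groups separate fully, as they did in 65 genes (0.41%). The log2 fold change was above 0 in 4 members and below 0 in 5, with a median of −0.05 beside 0.01 over all genes tested.

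**Figure D1:**
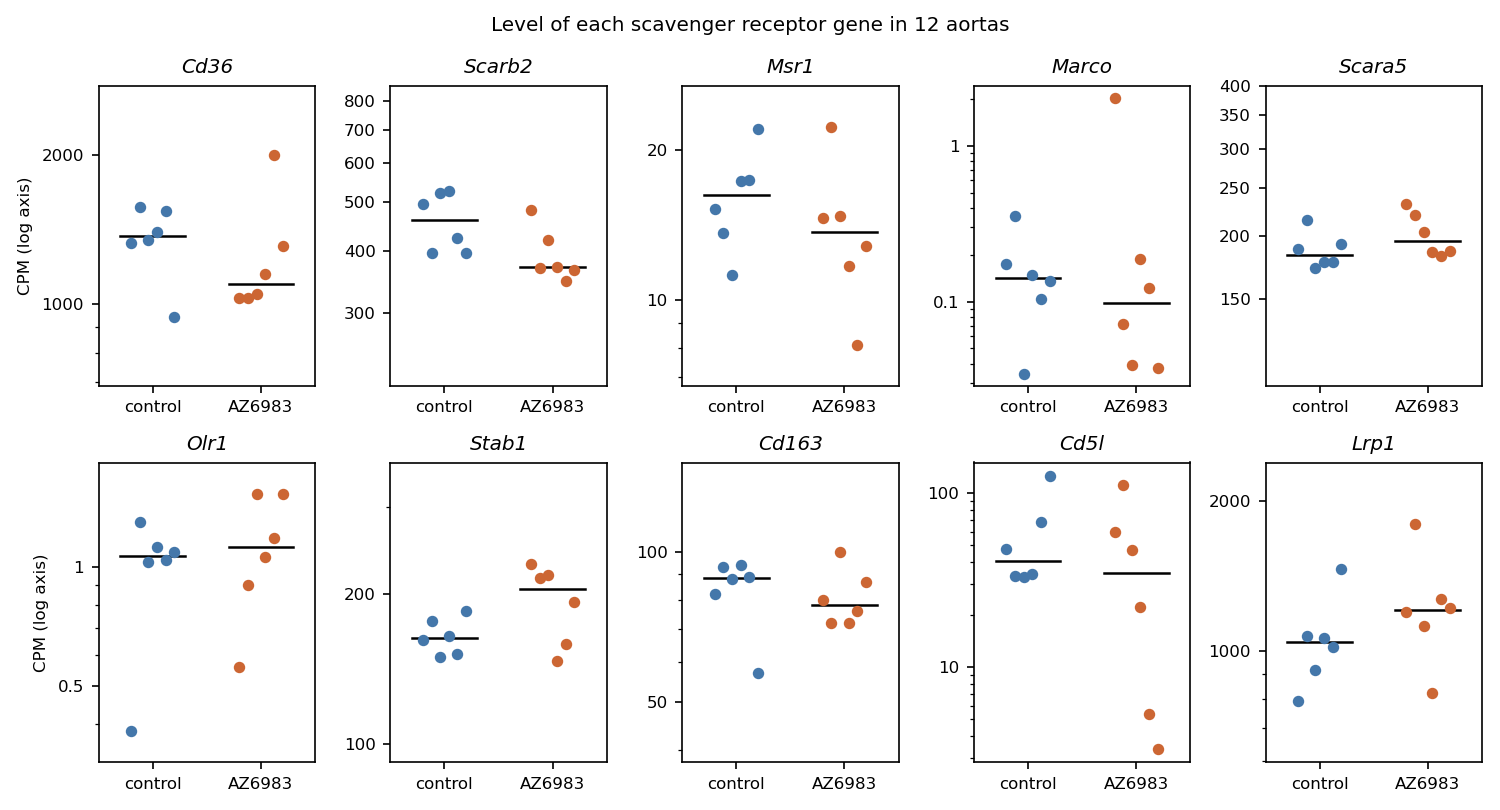
Level of each member in CPM (log axis, scaled separately in each panel) in 6 control mice (blue) and 6 AZ6983 mice (orange), 1 point per mouse, with the group median as a line. The groups overlap in every panel, 2 AZ6983 mice lie far below all others in Cd5l (5.35 and 3.39 CPM), and 1 AZ6983 mouse lies far above all others in Marco (2.01 CPM).

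Promoter sequences are shown for Cd5l, the tested member that differed most between mice, and Stab1, the member with the second smallest p. Each is the 250 bases before the RefSeq start on the GRCm38.p6 assembly, chr3:87357631-87357880 on the plus strand for Cd5l and chr14:31168642-31168891 on the minus strand for Stab1, 5′ to 3′ along the gene. Both windows end where the annotated gene begins. The capitals mark matches to GAGGAA, a core bound by the myeloid factor PU.1, searched on both strands.
Cd5l: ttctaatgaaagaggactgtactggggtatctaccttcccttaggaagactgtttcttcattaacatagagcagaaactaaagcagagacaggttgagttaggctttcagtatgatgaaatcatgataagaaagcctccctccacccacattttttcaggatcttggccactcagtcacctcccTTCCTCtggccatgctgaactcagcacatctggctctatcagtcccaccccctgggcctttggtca
Stab1: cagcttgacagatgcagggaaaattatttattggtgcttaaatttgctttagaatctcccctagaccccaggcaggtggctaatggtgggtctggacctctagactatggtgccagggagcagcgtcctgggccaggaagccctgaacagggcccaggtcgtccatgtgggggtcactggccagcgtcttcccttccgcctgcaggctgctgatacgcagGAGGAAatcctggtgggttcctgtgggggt
In Cd5l the match lies on the opposite strand, 66 to 61 bases before the start, and in Stab1 on the gene's own strand, 30 to 25 bases before it. The same letters occur in 23.3% of the 32851 promoters of this length in the table, so a match is a common event. An entry was present for 8 of the 10 members, and in 5 of these the first bases lie near the start of a GENCODE transcript. Olr1 and Marco also held GAGGAA, and Cd36 and Olr1 held AGGTCA, a core of sites for nuclear receptors (14.0% of promoters). The window of Cd36 (chr5:17835897-17836146) lies inside the annotated gene and not at its outer end. The window of Scarb2, the member with the smallest p, held no match to GAGGAA or AGGTCA. None of the 8 held the E-box CACGTG (6.02% of promoters).

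Of the class B receptors, Cd36 (chr5:17781690-17888801, minus strand), a fatty acid translocase and receptor for oxidized LDL, was the most abundant. Control mice had 942 to 1570 CPM with a median of 1380, and AZ6983 mice 1030 to 2000 CPM with a median of 1100. Of the AZ6983 mice, 5 were below the control median, and A5 alone was above all controls. The log2 fold change was −0.10 ± 0.179 (SE, adjusted p = 0.851, edgeR), and without A5 it was −0.31 with an unadjusted p of 0.0356 and an adjusted p of 0.359, and without C6 −0.19.

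The level of Cd36 followed the brown fat score over the 12 mice (r = 0.974, rho = 0.930, permutation p adjusted over 108 relations 0.00054 and 0.00432). The relation held without A5 and C6, the mice farthest from the median score (r = 0.946), and within each group (r = 0.984 in control and 0.970 in AZ6983 mice). The brown fat list was led by the thermogenic gene Ucp1 at 1230 to 3730 CPM and Cidea at 394 to 952 CPM. Its score was 7.03 to 7.91 in control and 7.12 to 8.36 in AZ6983 mice (exact permutation p = 0.39). With the brown fat score in the model, an alternative chosen after the data were seen, the log2 fold change of Cd36 was 0.04.

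Cd36 was also higher in mice with a high capillary endothelial score (r = 0.909, rho = 0.867, adjusted p = 0.0018 and 0.009, r = 0.793 without A5 and C6). The most abundant genes of that list were Fabp4, at 1760 to 4310 CPM, and Rgcc, and fat cells also express Fabp4, which leads the white fat list too. Without Fabp4, a choice made after the data were seen, the relation of Cd36 with the capillary list was r = 0.882 and rho = 0.783 (adjusted p = 0.00562 and 0.0352, r = 0.710 without A5 and C6). Cd36 was lower in mice with a high smooth muscle score, led by Myh11 and Acta2 (r = −0.840, rho = −0.790, adjusted p = 0.0123 and 0.0343, r = −0.620 without A5 and C2). Toward the macrophage score it gave r = −0.687 and rho = −0.573, which did not pass (adjusted p = 0.0779 and 0.245, r = −0.346 without A2 and A5). Toward the foamy macrophage score it gave r = −0.337 and rho = −0.168 (adjusted p = 0.524 and 0.778). The relation of Cd36 with the white fat score, led by Fabp4 and Cfd, passed by r only (r = 0.758, rho = 0.706, adjusted p = 0.0368 and 0.107). It was r = 0.746 within control and 0.895 within AZ6983 mice (exact permutation p = 0.144 and 0.0444). Without A5 and C2, the mice farthest from the median score, it dropped to r = 0.351. The 3 genes most like Cd36 after group means were subtracted, out of 13984 genes, were Acsl1, which activates long chain fatty acids (r = 0.990), March5 (r = 0.989) and Clstn3 (r = 0.987).

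Scarb2 (chr5:92441314-92506833, minus strand) had 395 to 528 CPM with a median of 460 in control mice and 347 to 482 CPM with a median of 370 in AZ6983 mice. In 4 AZ6983 mice it was below every control, and in 1, A1, above the control median. The log2 fold change was −0.23 ± 0.105 (SE, unadjusted p = 0.0494, adjusted p = 0.488, edgeR), and the exact permutation test gave p = 0.0541. Among the other ways of testing, 12 of 26 gave an unadjusted p under 0.05 and 0 gave a call at the threshold used.

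The level of Scarb2 was lower in mice with a higher no-gene share (r = −0.793, rho = −0.846, permutation p adjusted over 9 members 0.0204 and 0.00828). The value was r = −0.787 without A2 and C1, −0.719 within control and −0.633 within AZ6983 mice (exact permutation p = 0.0667 and 0.183). This relation was computed after the data were seen. With that share in the model the log2 fold change of Scarb2 was 0.01, with an unadjusted p of 0.933. Treatment and this share move together in these mice, and their parts in the level of Scarb2 cannot be told apart. Among the genes most like Scarb2 were Fam47e (r = 0.967, mean 1.35 CPM) and Tmem215 (r = 0.942). Fam47e lies 48235 bases from Scarb2 on the opposite strand (chr5:92555069-92591279).

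**Figure D2:**
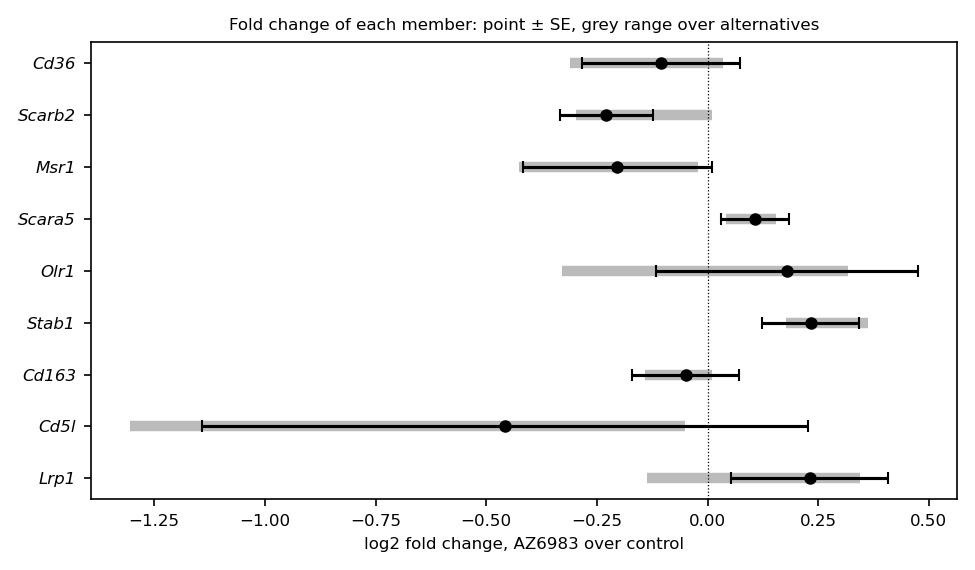
Log2 fold change of AZ6983 over control for the 9 members tested, as the edgeR estimate (point) ± SE (bar), with a grey band for the range over 25 or 26 other ways of testing. The band of Scarb2 runs from −0.30 to 0.01, those of Stab1 and Scara5 stay above 0, and that of Cd5l is the widest, from −1.31 to −0.05.

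Among the class A receptors, Msr1 (chr8:39581685-39642673, minus strand), the macrophage receptor for acetylated and oxidized LDL, had 11.2 to 22.0 CPM with a median of 16.3 in control mice. AZ6983 mice had 8.13 to 22.2 CPM with a median of 13.7. The groups shared nearly their whole range, with A2 and C6 highest and A5 lowest. For Msr1 the log2 fold change was −0.20 ± 0.213 (SE, adjusted p = 0.731, edgeR). It was −0.40 without A2 (unadjusted p = 0.0516), −0.11 without A5 and −0.09 without C6.

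Between mice, Msr1 moved with the macrophage score, whose most abundant genes were Lyz2 and Ctss (r = 0.962, rho = 0.916, adjusted p = 0.00054 and 0.0054). The relation was r = 0.908 without A2 and A5, and within groups 0.946 in control and 0.976 in AZ6983 mice. It moved with the foamy macrophage score too (r = 0.873, rho = 0.867, adjusted p = 0.00238 and 0.00842, r = 0.845 without A5 and A6). Toward the capillary endothelial score the relation was inverse (r = −0.849, rho = −0.755, adjusted p = 0.0123 and 0.0559, r = −0.592 without A5 and C6). The inverse relation with the endothelial score, led by Pecam1 and Tek, passed by r only (r = −0.766, rho = −0.503, adjusted p = 0.0465 and 0.335). It was r = −0.598 within control and −0.819 within AZ6983 mice (exact permutation p = 0.263 and 0.0722), and −0.373 without A5 and C6. The relation depended on the scaling, with r = −0.133 (permutation p adjusted 0.809) on library totals alone. With group means subtracted r was −0.739 (permutation p adjusted 0.0972). The genes most like Msr1 were Tnfaip2 (r = 0.971), the actin capping gene Capg (r = 0.969) and Myof (r = 0.966).

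Scara5 (chr14:65666403-65764826, plus strand) was the steadiest member, its highest mouse being 1.34-fold above its lowest. Control mice had 173 to 216 CPM with a median of 183 and AZ6983 mice 183 to 232 CPM with a median of 196. In AZ6983 mice 5 of 6 values lay above the control median, and the log2 fold change was 0.11 ± 0.0769 (SE, adjusted p = 0.611, edgeR). Scara5 was high where the adventitial fibroblast score was high (r = 0.807, rho = 0.895, adjusted p = 0.025 and 0.00621, r = 0.596 without A1 and A2). The genes most like Scara5 were D130020L05Rik (r = 0.877), C1qtnf3 (r = 0.854) and the collagen gene Col3a1 (r = 0.845).

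Marco (chr1:120474538-120505024, minus strand), a class A receptor of certain tissue macrophages, had 1 to 9 counts in each control mouse, a range of 0.0345 to 0.356 CPM. Of the AZ6983 mice, 5 held 14 counts together, while A1 had 54 counts, or 2.01 CPM. A1 therefore held 57.4% of all 94 counts (95% Clopper-Pearson interval 46.8% to 67.6%, which covers counting error only). The mean log2 CPM differed by 0.17 (AZ6983 minus control, exact permutation p = 0.887) over all 12 mice and by −0.46 without A1 (exact permutation p = 0.251).

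The lectin-like receptor Olr1 (LOX-1, chr6:129485244-129507165, minus strand), which binds oxidized LDL on endothelium, was near the limit of detection with 11 to 41 counts per mouse. Control mice had 0.384 to 1.30 CPM with a median of 1.06 and AZ6983 mice 0.557 to 1.53 CPM with a median of 1.12. The ranges overlapped broadly, C1 was lowest, and the log2 fold change was 0.18 ± 0.295 (SE, adjusted p = 0.845, edgeR). Without C1, which had 11 counts, the log2 fold change of Olr1 was 0.01 and the mean log2 CPM differed by −0.05 (AZ6983 minus control), and with the no-gene share in the model the log2 fold change was −0.33. The genes most like Olr1 were Zc3h3 (r = 0.891), Gm42515 (r = 0.879) and Tmem57 (r = 0.861).

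Stab1 (chr14:31139013-31168641, minus strand) encodes stabilin-1, a receptor of macrophages and sinusoidal endothelium for acetylated LDL and matrix fragments. Control mice had 150 to 185 CPM with a median of 163, and AZ6983 mice 147 to 230 CPM with a median of 205. In 4 AZ6983 mice (A1, A2, A3 and A6) it was above every control, while A4 was below every control and A5 below the control median. The log2 fold change was 0.23 ± 0.11 (SE, unadjusted p = 0.055, adjusted p = 0.498, edgeR, exact permutation p = 0.102). All 26 other ways of testing gave a value above 0, from 0.18 to 0.36, and 9 gave an unadjusted p under 0.05. These ways use the same mice or a part of them, so they are not independent. Scara5, Msr1 and Cd5l also kept their direction in all 26. The smallest, 0.000342, came with A4 and A5 left out, which are also the AZ6983 mice without a high value, and without A1 the unadjusted p was 0.132.

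Toward the resident macrophage score, led by Gas6 and Mrc1, Stab1 gave r = 0.606 and rho = 0.832 (adjusted p = 0.118 and 0.0184), with r = 0.671 without A3 and A5, and it passed by rank only. Toward the adventitial fibroblast score, led by Dcn and Col1a1, it gave r = 0.732 and rho = 0.797 (adjusted p = 0.0493 and 0.0281), with r = 0.487 without A1 and A2. That relation did not pass by r without A4 and A5 (r = 0.704, permutation p adjusted 0.143). Nor did it pass with group means subtracted (r = 0.740, permutation p adjusted 0.13). In pattern over mice Tspan11 (r = 0.942), Obsl1 (r = 0.919) and Man1c1 (r = 0.903) were most like Stab1. In Stab1, 112 bases of exon overlap Nt5dc2 on the opposite strand, a gene with 48 to 204 counts per mouse against at least 3896 for Stab1.

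Cd163 (chr6:124304656-124330527, plus strand) had 57.0 to 94.0 CPM with a median of 88.6 in control mice and 71.8 to 99.9 CPM with a median of 77.9 in AZ6983 mice. The value of C6 was the lowest of all, and 5 AZ6983 mice were below the control median. For Cd163 the log2 fold change was −0.05 ± 0.12 (SE, adjusted p = 0.9, edgeR). Although Cd163 is used as a macrophage marker, its level showed no relation that passed the test with the macrophage score (r = −0.231, rho = −0.042, adjusted p = 0.642 and 0.947, r = −0.366 without A2 and A5). Toward the resident macrophage score it gave r = 0.418 and rho = 0.378 (adjusted p = 0.387 and 0.483, r = 0.185 without A3 and A5). The genes most like Cd163 were Zkscan5 (r = 0.892), the endothelial gene Mmrn2 (r = 0.889) and Zfp639 (r = 0.852). For Zfp639 r was 0.987 within control and 0.597 within AZ6983 mice.

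Cd5l (chr3:87357881-87371073, plus strand) encodes the apoptosis inhibitor of macrophages, a secreted protein whose gene is a known target of the oxysterol receptor LXR. Control mice had 32.8 to 125 CPM with a median of 40.9. AZ6983 mice had 3.39 to 111 CPM with a median of 34.5. In 3 AZ6983 mice it lay below every control, A4 at 22.2, A5 at 5.35 and A6 at 3.39 CPM, and in the other 3 above the control median.

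The highest mouse for Cd5l was 36.8-fold above the lowest. The spread between mice of a group, as a biological coefficient of variation, was 79.2%, which put Cd5l at the 99.5 percentile of the 1000 genes nearest in abundance, with Msr1 next among the members at 94.0 and Scara5 last at 36.6. With this spread the log2 fold change was −0.46 ± 0.685 (SE, adjusted p = 0.824, edgeR), and the mean log2 CPM was lower by 1.15 in AZ6983 mice (exact permutation p = 0.251). With 1 mouse left out, the estimate ranged from −1.06 without A2 to −0.06 without C6, the highest mouse of each group.

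Cd5l was high in mice with a high macrophage score (r = 0.838, rho = 0.902, adjusted p = 0.0122 and 0.00621, r = 0.730 without A2 and A5) and a high foamy macrophage score (r = 0.871, rho = 0.832, adjusted p = 0.00238 and 0.0197, r = 0.777 without A5 and A6). The mouse with the lowest Cd5l, A6, had a macrophage score of 5.23 and a foamy macrophage score of 5.28, beside 5.14 and 5.90 in C3, whose Cd5l was 32.8 CPM. A4 and A5, also below every control for Cd5l, had macrophage scores of 5.34 and 4.82 and foamy macrophage scores of 5.44 and 5.11. The cause of the low Cd5l in these mice was not tested. Toward the capillary endothelial score the relation was inverse (r = −0.759, rho = −0.818, adjusted p = 0.0381 and 0.0242, r = −0.560 without A5 and C6). Its nearest genes were the cytokine Il1a (r = 0.945), the proton pump subunit Atp6v0d2 (r = 0.931) and Clec7a, which encodes the receptor dectin-1 (r = 0.925).

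**Figure D3:**
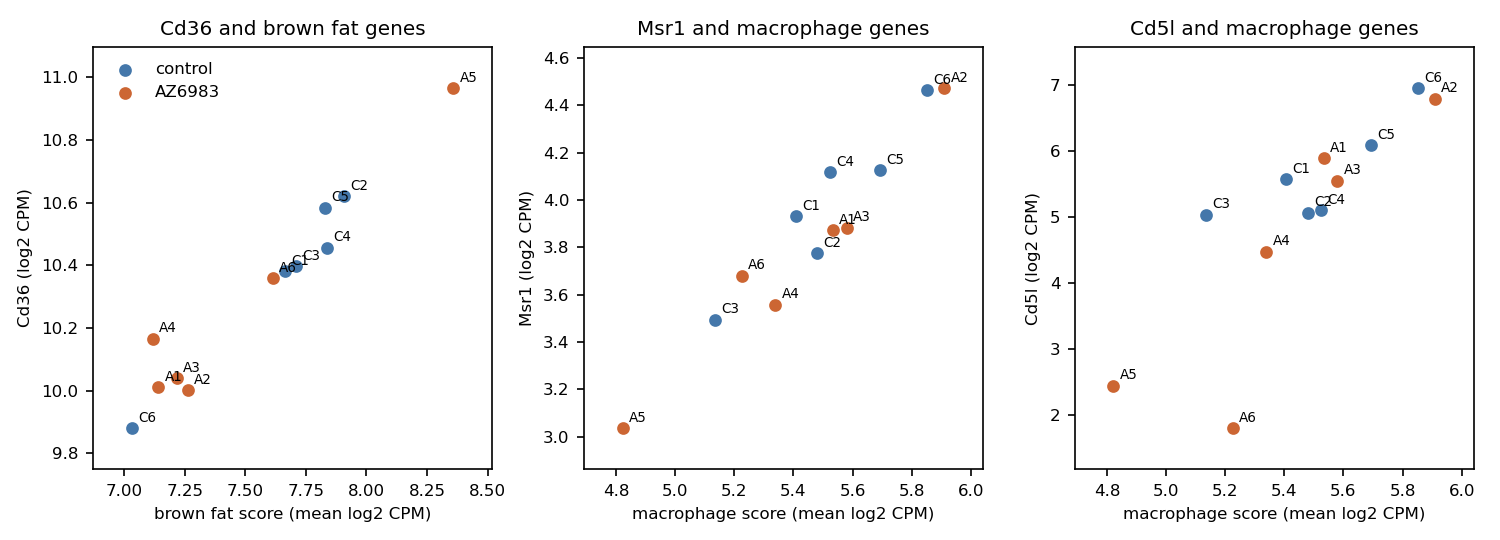
Level of Cd36 against the brown fat score, and of Msr1 and Cd5l against the macrophage score, 1 labelled point per mouse (blue control, orange AZ6983, both axes in log2 CPM). Points of both groups lie along the same line for Cd36 (r = 0.974) and Msr1 (r = 0.962), with A5 at the end of both, and A5 and A6 lie below the other mice for Cd5l (r = 0.838).

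Lrp1 (chr10:127538161-127621148, minus strand), which takes up aggregated LDL, remnant particles and proteases, had 793 to 1460 CPM with a median of 1040 in control mice. AZ6983 mice had 822 to 1800 CPM with a median of 1210, of which 5 were above the control median and 1 above every control. For Lrp1 the log2 fold change was 0.23 ± 0.178 (SE, adjusted p = 0.632, edgeR), and it was −0.14 with the no-gene share in the model, 0.08 without A2 and 0.35 without C6. The level of Lrp1 and that share gave r = 0.611 and rho = 0.629 (permutation p adjusted over 9 members 0.15 and 0.141), which dropped to r = 0.123 without A2 and C1. The genes most like Lrp1 were the matrix gene Ltbp4 (r = 0.983), Diap2 (r = 0.974) and Slit3 (r = 0.974).

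Over all 108 relations of 9 members with 12 marker scores, 13 passed an adjusted p under 0.05 by Pearson's r, 11 by Spearman's rho and 10 by both, and all belonged to Cd36, Msr1, Stab1, Scara5 and Cd5l. The points share their library and CPM values are shares of a whole, so the relations are not independent of each other. With A4 and A5 left out, 3 of the 108 passed by r, namely Cd36 with the brown fat and capillary endothelial scores and Msr1 with the macrophage score. Fewer mice make the threshold harder to pass, so this count alone does not show that A4 and A5 carried the relations. Those that no longer passed kept their sign. Among these 10 mice r was 0.796 for Scara5 with the adventitial fibroblast score (0.807 in all 12). For Cd36 with the smooth muscle score it was −0.703 (−0.840 in all 12). Of the 36 pairs of members, 2 passed by r and 1 of them, Msr1 and Cd5l, also by rho. Stab1 and Scara5 moved together (r = 0.830, rho = 0.790, adjusted p = 0.0414 and 0.0603, r = 0.655 without A1 and A2), as did Msr1 and Cd5l (r = 0.785, rho = 0.881, adjusted p = 0.0484 and 0.0133, r = 0.877 without A5 and A6). After group means were subtracted, 0 pairs passed, with r = 0.794 and 0.761 for the same pairs.

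**Figure D4:**
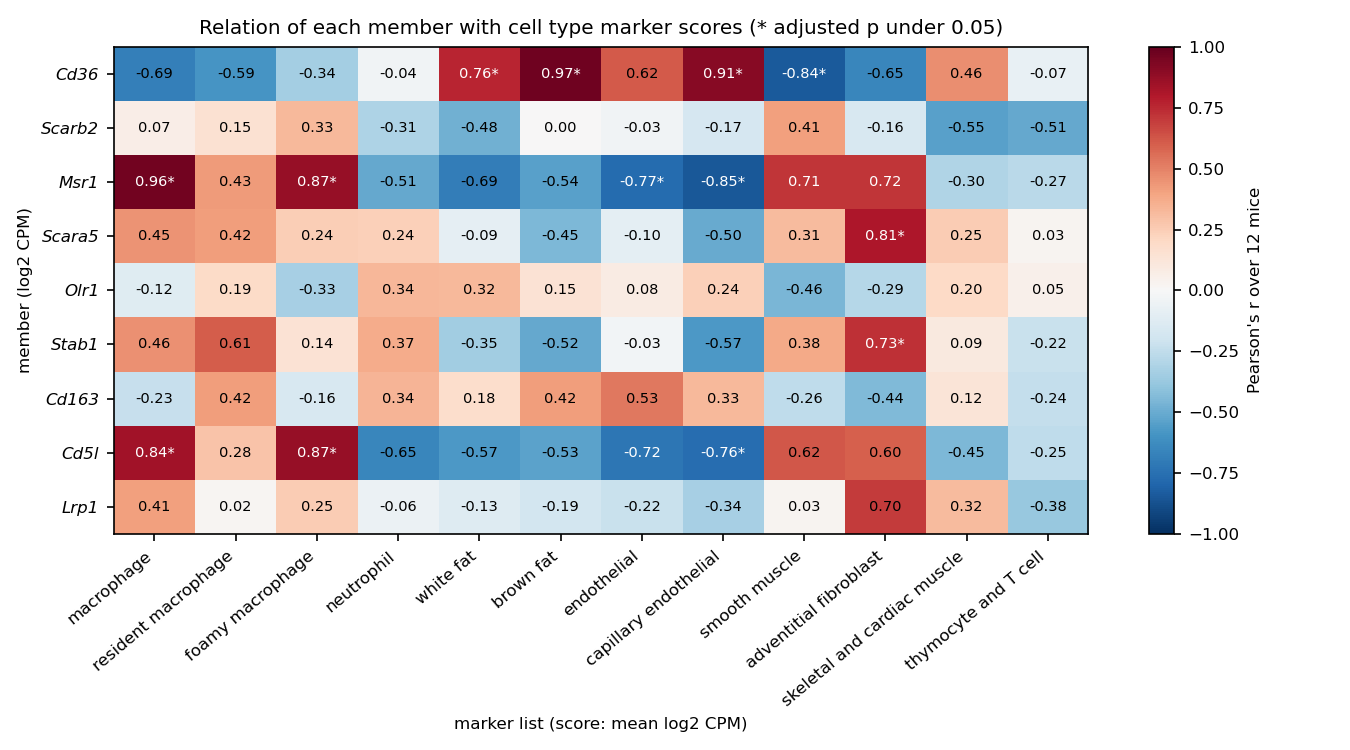
Pearson's r over 12 mice between the log2 CPM of each member tested (rows) and the score of each marker list (columns), red for positive and blue for negative, with * where the permutation p adjusted over 108 relations was under 0.05. Cd36 stands with the fat and capillary lists, Msr1 and Cd5l with the macrophage and foamy macrophage lists, and Stab1 and Scara5 with the adventitial fibroblast list. With A4 and A5 left out, which leaves 10 mice, only Cd36 with the brown fat and capillary lists and Msr1 with the macrophage list passed. The other marked relations kept their sign.

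Of 4 lists of related receptors and partners, edgeR called 0 genes at 10% FDR, and DESeq2 on every gene called 1, Scarb1. The counts that follow are at an unadjusted p under 0.05 in edgeR, where 7.38% of all genes were higher and 2.81% lower, and each list's share is to be read against these. Among 14 other scavenger receptors tested, 2 were higher and 0 lower, with a median log2 fold change of 0.02 beside 0.01 over all genes. The high density lipoprotein receptor Scarb1 had 20.6 to 33.6 CPM in control and 33.9 to 58.3 CPM in AZ6983 mice, groups that did not overlap (log2 fold change 0.58 ± 0.151 SE, unadjusted p = 0.00203, adjusted p = 0.447, edgeR). For Scarb1 DESeq2 gave 0.57 with an adjusted p of 0.0811, a call in that test, and 0.58 with 0.0746 on the filtered genes. Ssc5d, a soluble receptor with cysteine-rich domains, had 1.74 to 4.56 and 2.82 to 8.27 CPM (log2 fold change 0.71, adjusted p = 0.454, edgeR).

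Of 13 genes of the LDL receptor family, 1 was higher and 0 lower (median 0.01), a share near that of all genes. The values of Lrp6 were 230 to 255 CPM in control and 233 to 308 CPM in AZ6983 mice (log2 fold change 0.15, adjusted p = 0.482, edgeR), and Lrp5, its fellow Wnt coreceptor, had a log2 fold change of 0.15 (adjusted p = 0.53). Of 14 genes of CD36 signalling and regulation, 0 were higher and 0 lower (median −0.01), the smallest p belonging to the endotoxin receptor Tlr4 (log2 fold change −0.17, adjusted p = 0.547) and the kinase Fyn (0.15, adjusted p = 0.574). Of 11 genes for the recognition of apoptotic cells, 1 was higher and 0 lower (median −0.09), again near the share of all genes. This was Elmo1, an engulfment adaptor, at 15.7 to 22.1 CPM in control and 19.2 to 25.5 CPM in AZ6983 mice (log2 fold change 0.26, adjusted p = 0.462, edgeR), followed by the receptor kinase Mertk with a log2 fold change of −0.19 (adjusted p = 0.581).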

How the data were processed

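RNA of thoracic aorta from 12 mice was prepared with a stranded total RNA kit with ribosomal RNA removed and no poly(A) selection, so unspliced transcripts contribute to the counts. The authors deposited raw counts per gene symbol. The submitters' processing notes name CASAVA 1.8.2, STAR 2.5.2b, HTSeq 0.6.1p1 and the mm10 build. The annotation and the strand setting of the counting are not given in the sources used here, so reads of overlapping antisense genes may not be separated. There were 3 rows that named no gene, holding reads on no gene (8.02% to 14.9%), not unique (18.1% to 23.2%) and ambiguous (0.606% to 0.698%). Library sizes and tests exclude them.

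Groups came from the sample labels. Of the 12 columns, 11 carry a mouse number that matches in full, and the column of A1 carries 3 of its digits. The labels give no batch.

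The quasi-likelihood test of edgeR 4.0.16 (R 4.3.3) was applied to the counts (filterByExpr, TMM, no covariate, Benjamini-Hochberg over 15857 genes, 10% FDR, the level of the study). DESeq2 1.42.0, which the study used, limma-voom (limma 3.58.1), other scalings, filters and covariates and each mouse left out were alternatives. CPM values use TMM library sizes, and log2 CPM a prior count of 2. Per-length levels divide CPM by the exon length in GENCODE M21, which also gave gene positions (mm10). Exact permutation tests ran over 924 assignments, two-sided, with a smallest p of 0.00216. Correlations used 100000 permutations and within groups all of them. Similar genes were sought among 13984 genes with a mean of at least 1 CPM, by r over 12 mice after group means were subtracted. They are a description, and no test was run on them. The best of so many genes can have a high r by chance. Promoters came from RefSeq. The edgeR and DESeq2 fits were tested on simulated counts, and the correlation used to find similar genes on a planted partner. The other steps were not tested in this way.

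The members and gene lists were chosen with earlier results of these data known. The genes named are all members, the 3 genes most like each (1 of those for Scarb2 is not reported here), and of each related list the pair with the smallest p. Marker lists that a result turns on are described by their 2 most abundant genes.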

Additional observations from a re-analysis of the deposited data

Results flagged for a closer look

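A mouse was set apart where its gap to the nearest mouse of its group exceeded 0.625 of the group's range, Dixon's 95% limit for 6 values. Over 44 groups (20 of members and 24 of marker scores) this held in 9, where chance alone gives about 2.2, and the groups are not independent, since members and scores share mice and some genes. The control mouse C6 accounted for 5 of the 9.

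In control mice, C6 was low for Cd36 at 9.88 log2 CPM (others 10.38 to 10.62) and for Cd163 at 5.84 (others 6.36 to 6.56). It was also low for the brown fat score at 7.03 (others 7.67 to 7.91), the endothelial score at 5.92 (others 6.08 to 6.14) and the capillary endothelial score at 4.73 (others 5.20 to 5.31). C6 had the highest Cd5l of all mice. C1 was low for Olr1 at −1.14 log2 CPM (others 0.15 to 0.46), which rests on 11 counts.

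In AZ6983 mice, A5 was high for Cd36 at 10.97 log2 CPM (others 10.002 to 10.359), and its brown fat score was the highest of all. A1 was high for Marco at 1.05 log2 CPM (others −3.21 to −1.96). In A1 the lung surfactant genes Sftpc, Sftpb, Sftpa1 and Sftpd had 1, 0, 1 and 1 counts. The airway gene Scgb1a1 had 24 counts in A1 against 10 to 574 in the other mice. The immunoglobulin gene Ighg3, which did not pass the filter, had 123 counts in A1 against 0 to 20 in the other mice. The cause of the high Marco in A1 was not tested. A4 was high for the thymocyte and T cell score, led by Rag1 and Dntt, at 6.32 (others −0.29 to 2.04), and it had the lowest Stab1 of all mice.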

How the results depend on the processing

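No member was called at 10% FDR under any alternative run, each mouse left out included. The number of genes called over the table, 0 with edgeR, was 92 with DESeq2 on every gene and 84 on the filtered genes, 2 with library totals alone, 3 with the white fat score and 1 with the smooth muscle score in the model, 44 with the brown fat score in the model (chosen after seeing the data), and 0 to 27 with a mouse left out, 27 being without A5. Of the related receptors, DESeq2 called Scarb1 and edgeR did not. Members with an unadjusted p under 0.05, 1 as reported, were 2 with DESeq2 on the filtered genes and with the white fat, smooth muscle or brown fat score in the model, 0 with limma-voom, library totals alone or the no-gene share in the model, and 0 to 2 with a mouse left out (0 without C1, C3, C4, A2 or A6, 2 without C6 or A5). Members under 0.05 in the exact permutation test, 0 as reported, were 0 to 1 (1 without C2, C6, A1 or A4). With the no-gene share in the model the log2 fold change turned to −0.33 in Olr1, 0.0104 in Scarb2 and −0.14 in Lrp1, and with the brown fat score to 0.0353 in Cd36 and 0.0101 in Cd163. The cause was not tested. Relations with marker scores past the threshold, 13 as reported, were 23 with library totals and 3 without A4 and A5. Pairs of members, 2 as reported, were 0 without A4 and A5 and 0 with group means subtracted. These counts depend on the number of mice as well as on r. Among the 10 mice without A4 and A5, r was 0.837 for Stab1 with Scara5 and 0.673 for Msr1 with Cd5l. No paired analysis was run, since the mice of the groups are separate animals and the labels give no pairing. Olr1, with 11 to 41 counts per mouse, and Marco are limited by depth.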
